A study of Mus musculus with 16 samples.

Results

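The Notch receptors Notch1, Notch2, Notch3 and Notch4, the Jagged ligands Jag1 and Jag2, and the Notch target genes Hes1, Hey1 and Heyl were examined in mouse lung fibroblasts after knockdown of 1 of 3 lysyl oxidases. They were taken as every non-control probe of the array whose gene name was one of these 9 symbols, which gave 9 genes of the 34763 on the array and 11 probes of its 55681. The fibroblasts were primary cells, passaged before use, and received siRNA against Lox (siLox), against Loxl1 (siLoxL1), against Loxl2 (siLoxL2) or a scrambled control siRNA (scr). Each group had 4 samples, RNA was taken 48 h after transfection, and each sample was hybridised to 1 Agilent one-colour array. All groups therefore share transfection, and no untransfected cells were analysed here. The labels give no mouse strain, age or sex and do not say whether replicates came from separate animals or cultures, so the p-values rest on a spread that may be technical. The series title speaks of exogenous expression of the oxidases, whereas the sample labels describe siRNA. Lox, Loxl1 and Loxl2 are secreted oxidases; their products let collagen and elastin fibres be cross-linked.

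Notch receptors are membrane proteins that are read out by contact with a neighbouring cell. A Jagged or Delta-like ligand on that cell exposes the receptor to cleavage by the protease ADAM10 and then by gamma-secretase, and the freed intracellular domain enters the nucleus, where it joins the DNA-binding protein RBPJ and a Mastermind co-activator. Genes of the Hes and Hey families, which encode repressors, are classical targets. In lung, Notch3 is known from pericytes and smooth muscle and Notch4 from endothelium, and Notch signalling has been linked to the contractile state of fibroblasts.

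Levels are given as the log2 signal of a probe minus the 75th percentile of all non-control probes on the same array, so that 0 is the 75th percentile. Probes bind with different strength, so levels are set side by side between samples and not between genes. Of the 11 probes, 8 were well above background on all 16 arrays, and these 8 covered 7 of the 9 genes. Notch1 had 1 probe above background on every array, at chr2:26319440-26319499 (mm9, minus strand), and a second probe, 4810 bases away at chr2:26314630-26314689, that was above background on 0 of 16. Notch2 had probe 1 at chr3:97953914-97953973 and probe 2 at chr3:97951233-97951292 (plus strand), 2681 bases apart and both above background on every array. The remaining probes were Notch3 at chr17:32257848-32257907 (minus), Notch4 at chr17:34725120-34725179 (plus), Jag1 at chr2:136907433-136907492 (minus), Hes1 at chr16:30067820-30067879 (plus) and Hey1 at chr3:8663432-8663491 (minus). Jag2 at chr12:114146887-114146946 (minus) was above background on 1 of 16 arrays, a siLoxL2 array, and Heyl at chr4:122926975-122927034 (plus) on 0 of 16. Positions are those of the array's own annotation, and exon or UTR status was not analysed here.

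Notch1 and Notch2 are the genes with 2 probes, and results depend on which probe is read, so the more upstream probe of each is shown as the array file spells it.
Notch1 probe: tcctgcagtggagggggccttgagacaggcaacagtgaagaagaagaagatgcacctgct
Notch2 probe 2: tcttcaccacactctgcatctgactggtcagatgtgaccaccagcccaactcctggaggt
Results are given for both Notch2 probes.

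Upstream sequence is shown for Notch3, Notch4 and Jag1, since Notch3 and Notch4 were called within a slide and Jag1 is the Jagged ligand measured above background. Each run is the 250 bases before the start of the gene in RefSeq (GRCm38.p6), written in the direction of the gene, at chr17:32166891-32167140 (minus strand) for Notch3, chr17:34564045-34564294 (plus) for Notch4 and chr2:137116521-137116770 (minus) for Jag1. Capitals mark CACGCG, a letter string bound by Hes and Hey proteins, on either strand.
Notch3: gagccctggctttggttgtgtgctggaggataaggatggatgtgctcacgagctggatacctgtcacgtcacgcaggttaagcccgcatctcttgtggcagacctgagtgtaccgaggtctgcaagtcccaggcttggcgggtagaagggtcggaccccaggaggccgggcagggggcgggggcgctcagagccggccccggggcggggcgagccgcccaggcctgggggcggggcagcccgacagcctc
Notch4: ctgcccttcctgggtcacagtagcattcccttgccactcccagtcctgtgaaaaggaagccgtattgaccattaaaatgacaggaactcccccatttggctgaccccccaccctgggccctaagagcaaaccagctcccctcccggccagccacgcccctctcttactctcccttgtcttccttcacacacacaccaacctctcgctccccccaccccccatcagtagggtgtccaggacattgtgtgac
Jag1: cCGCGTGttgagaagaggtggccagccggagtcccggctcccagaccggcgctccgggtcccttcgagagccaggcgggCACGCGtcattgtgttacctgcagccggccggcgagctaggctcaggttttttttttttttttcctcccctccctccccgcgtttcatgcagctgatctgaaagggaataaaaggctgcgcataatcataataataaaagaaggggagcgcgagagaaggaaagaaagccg
Windows were found for 6 of the 9 genes, namely the 4 receptors and both ligands. The RBPJ core GTGGGAA (or TTCCCAC) was present in 0 of the 6, against 5.42% of all 32851 windows of the same length. The E-box CACGTG was present in 0 of 6, against 6.02% of all windows. CACGCG (or CGCGTG) was present in 2 of 6, against 7.62% of all windows. It began 249 and 171 bases upstream of Jag1 and 42 bases upstream of Notch2. GC content was 68.8% for Notch3, 58.4% for Notch4 and 57.2% for Jag1. These are matches of letters only.

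The samples lay on 2 slides, siLox and scr on slide 1 and siLoxL1 and siLoxL2 on slide 2, and the first principal component, with 68.7% of the variance, separated the slides. Within a slide each group filled 1 row, so row and siRNA cannot be told apart there. Between 49.2% and 52.3% of non-control spots were well above background on slide 1 and between 60.4% and 63.1% on slide 2. The median SD within groups was 0.18 log2 units on slide 1 and 0.11 on slide 2. Lox fell in siLox to 13.2% and 22.3% of scr on its 2 probes (adjusted p = 0.00387 and 0.00317, limma). In the same siLox cells Loxl1 also fell, to 71.3% and 70.9% of scr on its 2 probes (adjusted p = 0.0395 and 0.0380, limma). Loxl2 fell there to 61.0% of scr on 1 of its 3 probes (adjusted p = 0.0282, limma), while the others, at 71.9% and 71.0%, did not pass (adjusted p = 0.0641 and 0.0577, limma). Loxl1 fell in siLoxL1 to 44.9% and 41.5% of siLoxL2 on its 2 probes. Loxl2 was higher in siLoxL1 than in siLoxL2 by 0.30, 0.38 and 0.34 log2 units on its 3 probes (adjusted p = 0.0645, 0.0182 and 0.0146, limma). Across slides, the same Loxl2 probes were at 59.0%, 43.3% and 46.0% of scr in siLoxL1. They were at 47.8%, 33.3% and 36.2% of scr in siLoxL2, and slide and siRNA cannot be told apart in either value. The fibroblast markers were above background in every sample, all 8 of 8, as were all 9 leukocyte and macrophage and all 6 mesothelial markers. Of 9 epithelial genes, 3 to 4 were above background in siLox samples and 4 in every sample of the other groups. The epithelial genes Epcam, Cdh1, Nkx2-1, Sftpb and Sftpc were above background in 0 arrays of any within-slide comparison.

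**Figure D1:**
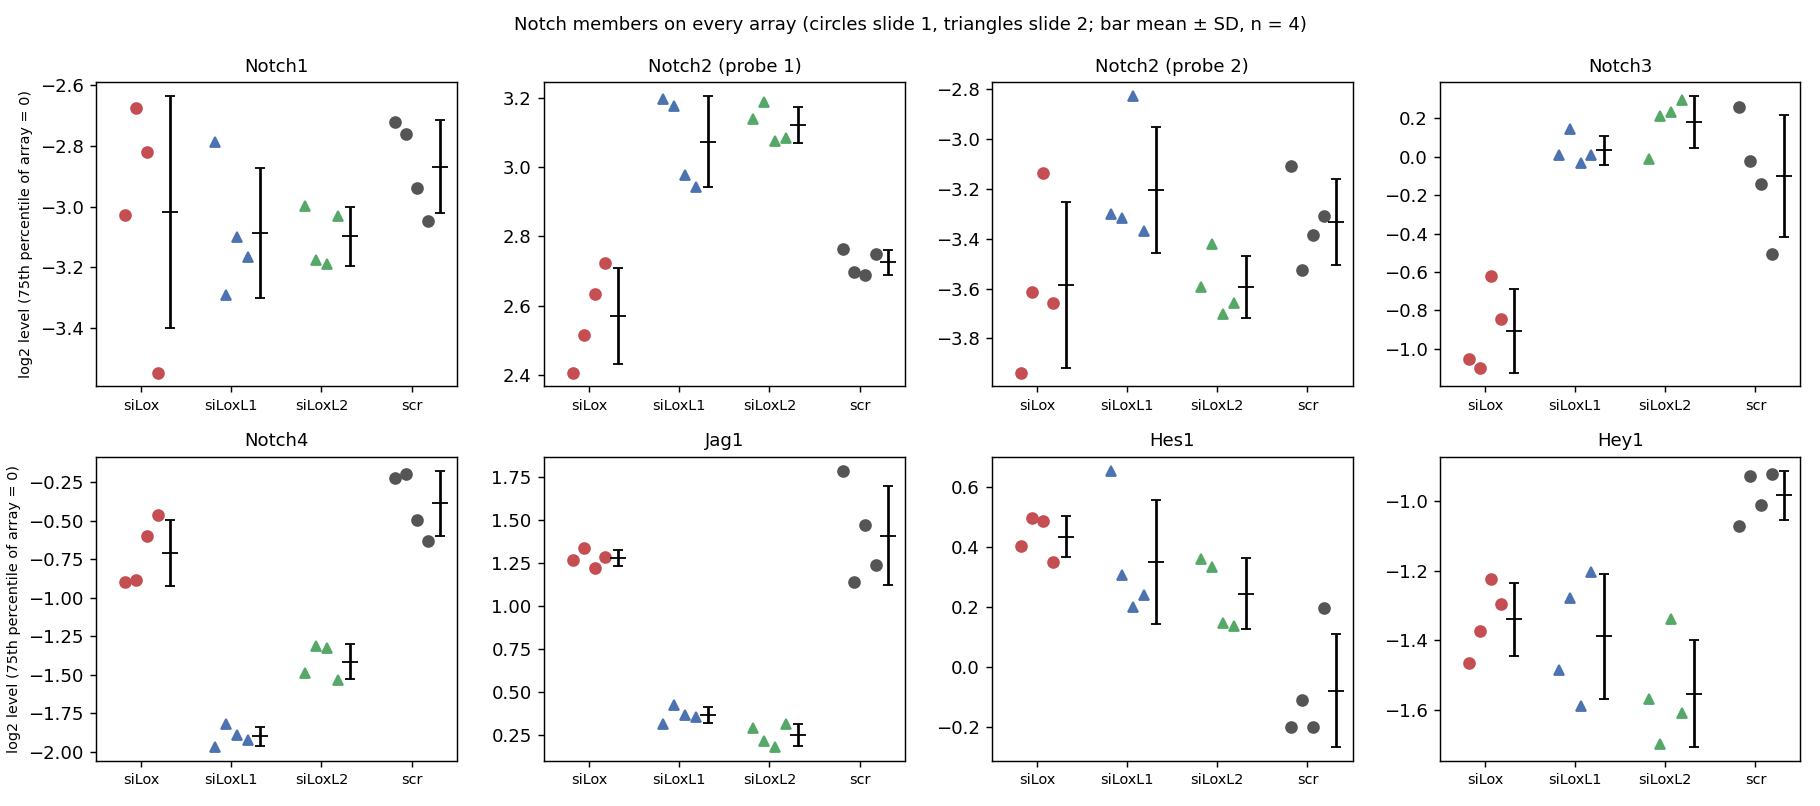
Levels of the 8 Notch probes on every array, as log2 signal relative to the array's 75th percentile (vertical axis), for siLox, siLoxL1, siLoxL2 and scr from left to right. Circles are slide 1, triangles slide 2, and bars the mean ± SD of 4 samples. Notch3 lies lowest in siLox, Hes1 lies lowest in scr, and Notch4 and Jag1 separate by slide.

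In siLox cells the receptor Notch3 fell to 57.3% of scr, the target Hes1 rose 1.43-fold and the target Hey1 fell to 78.1% of scr, on 1 slide. These were 3 of the 7 measured genes, 1 higher and 2 lower, against 22.4% of 22644 genes called in this comparison (10.4% higher and 12.1% lower). A gene is called where its Benjamini-Hochberg adjusted p over all 32430 probes above background was under 0.05 (limma). The groups did not overlap for the same 3 genes, against 30.6% of all genes. The median difference was -0.16 log2 units over the 7 genes and -0.05 over all genes.

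Notch3 encodes the receptor best known from mural cells. Its levels were -1.05, -1.10, -0.62 and -0.85 in siLox samples 1 to 4, against 0.26, -0.02, -0.14 and -0.51 in scr samples 1 to 4. Every siLox sample lay below every scr sample, with siLox 3 and scr 4 the closest to each other. The difference was -0.80 ± 0.18 (SE) log2 units, with a 95% interval of -1.22 to -0.39 (adjusted p = 0.0230, limma; exact two-sided permutation p = 0.0286, the smallest that 4 against 4 samples allow). This was the only receptor called in siLox. The call was lost without scr 2, scr 3, siLox 1 or siLox 2 (adjusted p = 0.0595, 0.0616, 0.0642 and 0.0658, limma). It was also lost with replicate number as a block in the fit (adjusted p = 0.109, limma). The difference stayed between -0.96 and -0.68 over 18 alternatives.

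Notch4, a receptor known from endothelium, had levels of -0.90, -0.88, -0.60 and -0.46 in siLox, against -0.22, -0.20, -0.50 and -0.63 in scr. The groups overlapped, since siLox 3 and 4 lay within the range of scr. The difference was -0.32 ± 0.14 (95% interval -0.65 to 0.01; adjusted p = 0.136, limma). It was called with replicate 4 of both groups left out (-0.49, adjusted p = 0.0391) and with all 16 arrays in the limma fit (adjusted p = 0.0365).

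Notch2 is a widely expressed receptor. Probe 1 read 2.41, 2.52, 2.63 and 2.72 in siLox and 2.76, 2.70, 2.69 and 2.75 in scr. Its difference of -0.16 ± 0.08 did not pass (adjusted p = 0.187, limma), and siLox 4 reached into the range of scr. Probe 2 read -3.94, -3.61, -3.14 and -3.66 in siLox and -3.11, -3.52, -3.39 and -3.31 in scr, a difference of -0.25 ± 0.17 (adjusted p = 0.308, limma). Notch1, the founding member of the family, read -3.03, -2.68, -2.82 and -3.55 in siLox and -2.72, -2.76, -2.94 and -3.05 in scr. The Notch1 difference was -0.15 ± 0.19, with a 95% interval from -0.58 to 0.29 (adjusted p = 0.588, limma). That interval still holds a decrease of the size seen in Notch4.

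Jag1 encodes a membrane ligand of the receptors. It read 1.27, 1.34, 1.23 and 1.29 in siLox, against 1.79, 1.14, 1.47 and 1.24 in scr. The siLox samples were close together (SD 0.05) and lay within the wider range of scr (SD 0.29). The difference was -0.13 ± 0.14 (95% interval -0.45 to 0.19; adjusted p = 0.516, limma). Jag2, the other Jagged ligand, was above background in 0 of 4 siLox and 0 of 4 scr samples.

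The target genes moved in opposite directions. Hes1 encodes a repressor with basic helix-loop-helix structure that many signals besides Notch also induce. It read 0.40, 0.50, 0.49 and 0.35 in siLox, against -0.20, -0.11, -0.20 and 0.20 in scr. All 4 siLox samples lay above the highest scr sample, scr 4. The difference was 0.51 ± 0.10 (95% interval 0.28 to 0.75; adjusted p = 0.0176, limma; exact two-sided permutation p = 0.0286).

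Hey1 encodes a related repressor. It read -1.47, -1.37, -1.22 and -1.30 in siLox, against -1.07, -0.93, -1.01 and -0.92 in scr. Every siLox sample lay below every scr sample. The difference was -0.36 ± 0.07 (95% interval -0.53 to -0.19; adjusted p = 0.0199, limma; exact two-sided permutation p = 0.0286). Neither target's call held in every alternative. Hes1 was lost without scr 3, siLox 2 or siLox 3 (adjusted p = 0.0555, 0.0552 and 0.0561, limma) and with the replicate block (adjusted p = 0.104, limma). Hey1 was lost without scr 2, scr 3, siLox 1 or siLox 2 (adjusted p = 0.0548, 0.0568, 0.0505 and 0.0612, limma). The Hey1 call was also lost with the replicate block and without a filter on dim probes (adjusted p = 0.103 and 0.0536, limma). Over the 18 alternatives the Hes1 difference ranged from 0.41 to 0.63 and that of Hey1 from -0.40 to -0.31. Heyl, another Hey family member, was above background in 0 of 4 siLox and 0 of 4 scr samples.

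**Figure D2:**
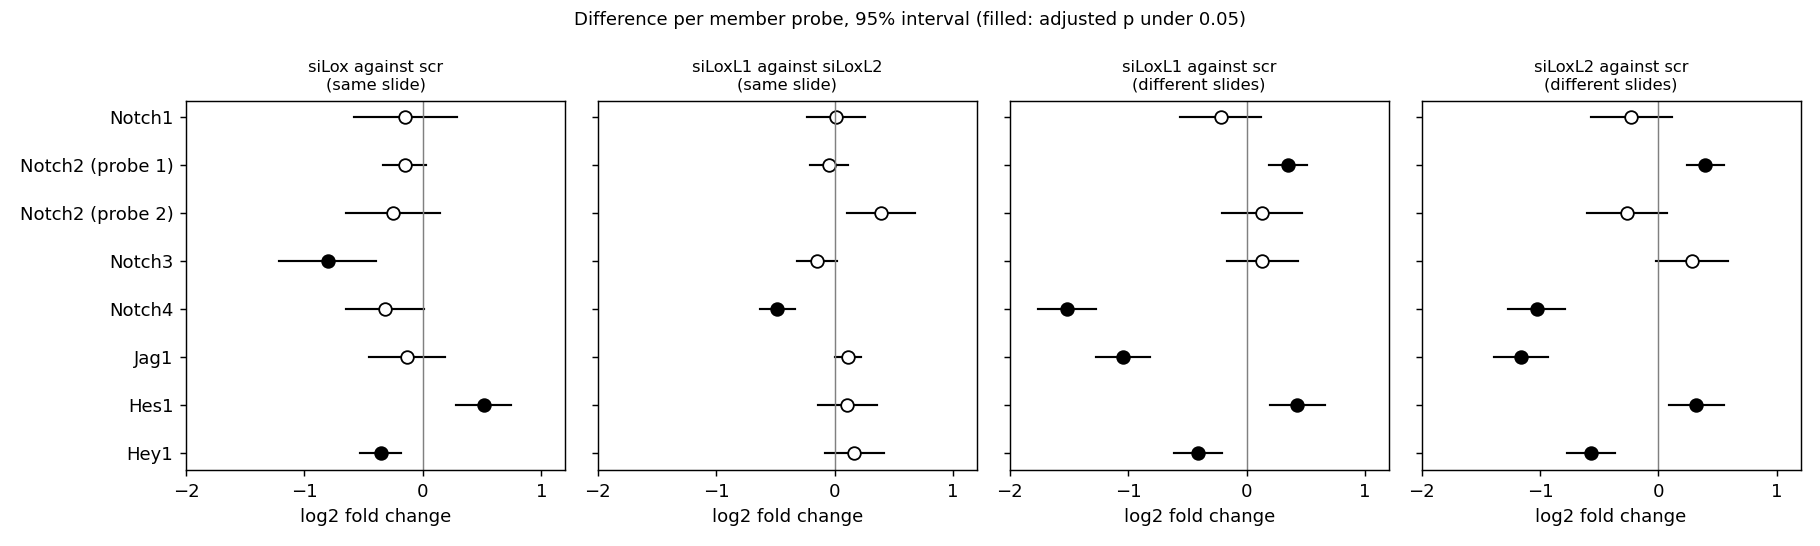
Log2 fold change of the 8 Notch probes with its 95% interval (horizontal axis), in the comparisons siLox against scr, siLoxL1 against siLoxL2, siLoxL1 against scr and siLoxL2 against scr. Filled points have an adjusted p under 0.05. Notch3, Hes1 and Hey1 are filled for siLox against scr, and Notch4 alone for siLoxL1 against siLoxL2.

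Markers of other cells were read in the same samples. Of 12 pericyte and smooth muscle genes, 10 were tested in siLox against scr, and 5 were lower and 1 higher, against 12.1% lower and 10.4% higher among all genes. Rgs5, a regulator of G-protein signalling used as a pericyte marker, fell by 1.34, and Pdgfrb, the receptor for PDGF-B, fell by 0.79 log2 units. These are 2 of the 10 tested genes, whose directions were mixed, and the 1 higher gene is not named here. The pericyte genes Kcnj8 and Abcc9 were above background in 0 arrays of either group. The mean level of the list was 2.87 to 3.21 in siLox and 3.24 to 3.60 in scr, without overlap, and its summed linear level was 847 to 1071 in siLox and 1045 to 1188 in scr. The number of its genes called was 0 without scr 3, 1 without scr 2, siLox 1, siLox 2 or siLox 3, 2 without scr 1 and at most 6 over the arrays left out. Of 8 fibroblast markers 3 were lower, Thy1 by 0.84 and S100a4 by 0.50 log2 units among them, and 0 higher, against 22.4% of all genes called. That count was 1 without scr 3, siLox 2 or siLox 3, 5 without siLox 4 and 6 without replicate 4 of both groups. The summed fibroblast level was 658 to 873 in siLox and 975 to 1065 in scr. Fewer cells of a type and less RNA per cell cannot be told apart in such bulk samples, and the part of either list in the Notch3 difference was not tested.

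The next lists stand against 22.4% of all genes called in siLox against scr (10.4% higher and 12.1% lower). Of all 32430 probes, 12636 had an unadjusted p under 0.05 (limma). Of 10 endothelial genes, 7 were tested and 1, Egfl7, was higher in siLox (0 without scr 3, siLox 1, siLox 2 or siLox 3), while Erg and Tie1 were above background in 0 arrays. The summed endothelial level was 6.34 to 8.18 in siLox and 7.34 to 8.36 in scr. Of 9 leukocyte and macrophage genes 1, Marco, was higher by 1.08 log2 units, and 4 of the 9 had an unadjusted p under 0.05. The list median was 0.38 log2 units, and 5 genes were called without scr 4 and 4 without replicate 4 of both groups. Summed leukocyte levels were 23.4 to 27.8 in siLox and 22.6 to 25.9 in scr. Of 6 mesothelial genes, 1 was higher and 3 lower, all 6 had an unadjusted p under 0.05, and the number called ran from 1 (without siLox 3) to 5 over the arrays left out, with 2 without siLox 2. The mean mesothelial level was 0.40 to 0.48 in siLox and 0.58 to 0.73 in scr, without overlap, while the summed level was 13.02 to 14.41 in siLox and 12.89 to 13.93 in scr. Of 9 epithelial genes 4 were tested and 0 called by limma (2 at an unadjusted p under 0.05), with summed levels of 5.50 to 6.04 in siLox and 4.98 to 7.30 in scr.

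**Figure D3:**
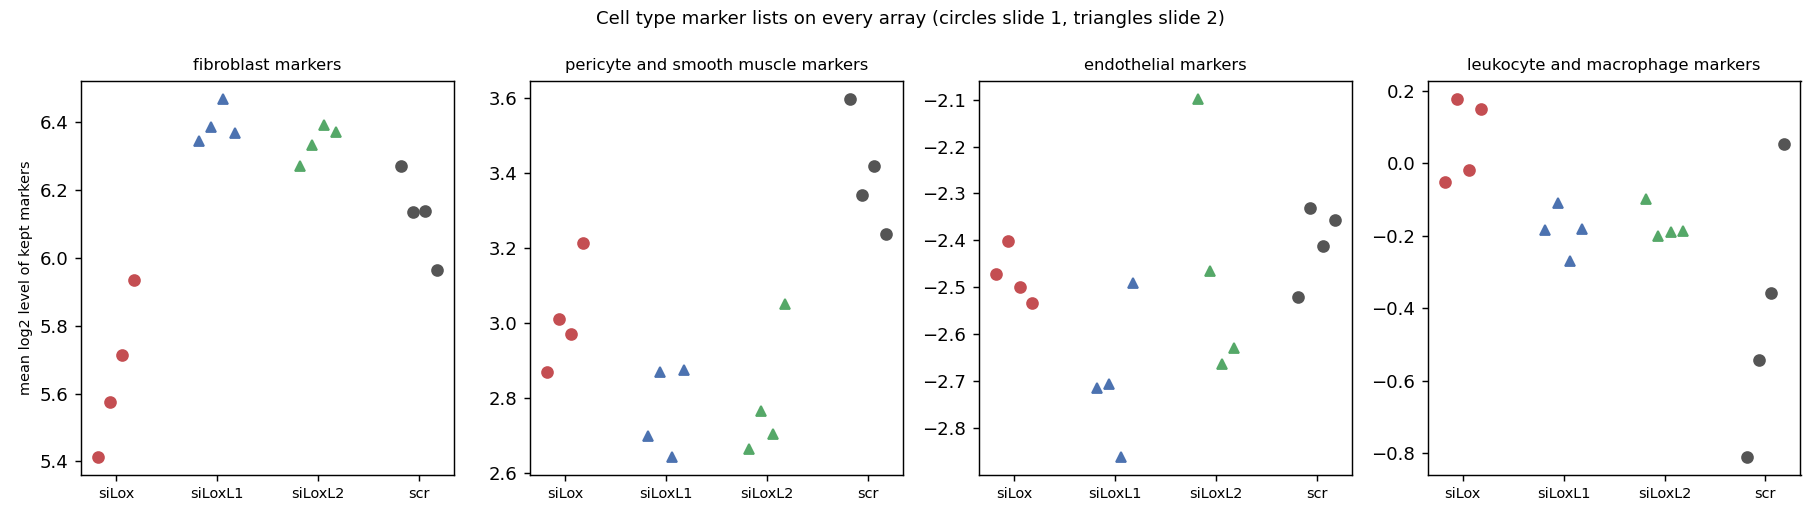
Mean log2 level of the tested genes of 4 marker lists (fibroblast, pericyte and smooth muscle, endothelial, leukocyte and macrophage) on every array, for siLox, siLoxL1, siLoxL2 and scr. Circles are slide 1 and triangles slide 2. The list means of fibroblast and of pericyte and smooth muscle markers are lower in every siLox sample than in any scr sample. For fibroblast markers the closest samples are siLox 4 at 5.93 and scr 4 at 5.96.

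In siLoxL1 cells the receptor Notch4 was lower than in siLoxL2 cells, at 71.4%, and no other of the 7 genes was called. The 1 lower gene of 7 stands against 7.11% of all genes called (4.77% higher and 2.34% lower), and 20.3% of all genes did not overlap between these groups. Notch4 read -1.97, -1.82, -1.89 and -1.92 in siLoxL1, against -1.49, -1.31, -1.33 and -1.53 in siLoxL2. The groups did not overlap. The difference was -0.49 ± 0.06 (95% interval -0.63 to -0.34; adjusted p = 0.0104, limma; exact two-sided permutation p = 0.0286). It ranged from -0.53 to -0.41 over 18 alternatives and was called in 17, the exception being the fit without replicate 4 of both groups (adjusted p = 0.0575). Of 7 endothelial genes tested, 2 were lower in siLoxL1, Tek by 0.86 and Vwf by 0.50 log2 units, and 0 were higher, while Erg and Tie1 were above background in 0 arrays. Tek was above background in 3 of 4 siLoxL1 and 4 of 4 siLoxL2 samples. Its siLoxL1 mean of -5.78 lay near the dimmest signals above background there (-6.14 to -5.98), so its size is uncertain. The summed endothelial level was 11.03 to 12.17 in siLoxL1 and 11.37 to 12.01 in siLoxL2, which overlapped. The number of endothelial genes called was 0 without siLoxL1 2, without siLoxL2 3 or without replicate 4 of both groups and 1 or 2 without any other array, and the part of these genes in the Notch4 difference was not tested. By limma 0 genes were called among 8 fibroblast, 10 pericyte and smooth muscle, 4 epithelial, 9 leukocyte and macrophage and 6 mesothelial genes in this comparison, where 2, 1, 0, 6 and 1 had an unadjusted p under 0.05. Of all 32430 probes, 8231 had an unadjusted p under 0.05 there (limma).

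The other receptors did not pass in siLoxL1 against siLoxL2. Notch3 read 0.01, 0.14, -0.03 and 0.01 in siLoxL1 and -0.01, 0.21, 0.23 and 0.30 in siLoxL2, a difference of -0.15 ± 0.07 (adjusted p = 0.253, limma). The Notch2 probes disagreed. Probe 1 read 3.20, 3.18, 2.98 and 2.94 in siLoxL1 and 3.14, 3.19, 3.08 and 3.08 in siLoxL2, a difference of -0.05 ± 0.07 (adjusted p = 0.703, limma). Probe 2 read -3.30, -3.32, -2.83 and -3.37 in siLoxL1 and -3.59, -3.42, -3.70 and -3.66 in siLoxL2, without overlap. Its difference of 0.39 ± 0.13 did not pass over all probes (adjusted p = 0.104, limma; exact two-sided permutation p = 0.0286), and siLoxL1 sample 3 stood above the others. Notch1 read -2.79, -3.29, -3.10 and -3.17 in siLoxL1 and -3.00, -3.17, -3.19 and -3.03 in siLoxL2, and its difference of 0.01 ± 0.11 had a 95% interval from -0.23 to 0.26.

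Jag1 read 0.31, 0.43, 0.37 and 0.36 in siLoxL1 and 0.29, 0.22, 0.18 and 0.31 in siLoxL2. The difference of 0.11 ± 0.05 did not pass (adjusted p = 0.183, limma), and the samples overlapped only at the lowest siLoxL1 value. Hes1 read 0.65, 0.31, 0.20 and 0.24 in siLoxL1 and 0.36, 0.33, 0.15 and 0.14 in siLoxL2, a difference of 0.11 ± 0.11 (95% interval -0.14 to 0.36). Hey1 read -1.49, -1.28, -1.59 and -1.20 in siLoxL1 and -1.57, -1.70, -1.34 and -1.61 in siLoxL2, a difference of 0.17 ± 0.11 (95% interval -0.08 to 0.41). Both targets overlapped between the groups (adjusted p = 0.577 for Hes1 and 0.372 for Hey1, limma).

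siLoxL1 and siLoxL2 can be set against scr only across slides, so slide and siRNA cannot be told apart, and both comparisons use the same scr samples. Of all genes 64.6% were called in siLoxL1 against scr (43% higher, 21.6% lower) and 64.3% in siLoxL2 against scr (41.1% higher, 23.2% lower). Of the 7 Notch genes 5 were called in each, a total near that background. By direction 2 were higher and 3 lower, whereas among all genes higher calls outnumber lower ones, and 7 genes are few for such a split. In siLoxL1 5 and in siLoxL2 4 of the 7 did not overlap scr, against 58.2% and 57.3% of all genes. Relative to the 75th percentile the median gene was itself higher by 0.19 in siLoxL1 and by 0.17 log2 units in siLoxL2. Notch4 differed from scr by -1.51 ± 0.11 in siLoxL1 and by -1.03 ± 0.11 in siLoxL2, or by -1.71 and -1.20 relative to the median gene. Jag1 differed from scr by -1.04 ± 0.11 in siLoxL1 and by -1.16 ± 0.11 in siLoxL2, or by -1.24 and -1.33 relative to the median gene. The unscaled signal of Jag1 averaged 1181 units in siLoxL1 and 1055 in siLoxL2, against 1222 in scr, while the array 75th percentile (log2) was 9.74 to 9.90 on slide 2 and 8.67 to 9.03 on slide 1. These unscaled Jag1 signals ran from 1129 to 1225 in siLoxL1 and from 993 to 1123 in siLoxL2, both within the 900 to 1644 units of scr. Unscaled Notch4 signals were 236 to 255 units in siLoxL1, below the 278 to 408 of scr, and 302 to 357 in siLoxL2, within the range of scr.

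The remaining cross-slide differences were smaller. Notch2 probe 1 was higher by 0.35 ± 0.07 in siLoxL1 and by 0.40 ± 0.07 in siLoxL2, whereas probe 2 gave 0.13 ± 0.16 and -0.26 ± 0.16, neither of which passed. Relative to the median gene, probe 1 was higher by only 0.16 and 0.23. Hey1 differed by -0.41 ± 0.09 in siLoxL1 and by -0.57 ± 0.09 in siLoxL2. Hes1 was higher by 0.43 ± 0.11 in siLoxL1 and by 0.32 ± 0.11 in siLoxL2, but by only 0.23 and 0.15 relative to the median gene. Its siLoxL2 samples overlapped scr (exact two-sided permutation p = 0.0857). The siLoxL2 call of Hes1 was lost without scr 3 or siLoxL2 1 (adjusted p = 0.0535 and 0.0527, limma). Notch3 gave 0.13 ± 0.14 in siLoxL1 and 0.28 ± 0.14 in siLoxL2, and Notch1 -0.22 ± 0.16 and -0.23 ± 0.16. Neither gene passed in either group. Heyl and the second Notch1 probe lay below background in all samples, and Jag2 in all but 1, so no fold is given for them.

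Order of mean level differed from gene to gene. This order runs across both slides, so slide and siRNA cannot be told apart in it, and siLox was not tested against siLoxL1 or siLoxL2. Notch3 averaged -0.91 ± 0.22 in siLox, 0.03 ± 0.08 in siLoxL1, 0.18 ± 0.13 in siLoxL2 and -0.10 ± 0.32 in scr (SD, n = 4 each), so siLox was lowest and the scaled ranges of the other groups overlapped. Unscaled Notch3 signals were 855 to 994 in siLoxL1 and 908 to 1076 in siLoxL2, above the 304 to 570 of scr. Hes1 averaged 0.43 ± 0.07, 0.35 ± 0.21 and 0.24 ± 0.12 in siLox, siLoxL1 and siLoxL2, whose ranges overlapped, and -0.08 ± 0.19 in scr. Hey1 averaged -1.34 ± 0.10, -1.39 ± 0.18 and -1.55 ± 0.15 in siLox, siLoxL1 and siLoxL2, again with overlapping ranges. Its scaled level was highest in scr at -0.98 ± 0.07, whereas its unscaled signal was higher in siLoxL1 and siLoxL2 than in scr. Notch4 averaged -0.71 ± 0.22 in siLox, -1.90 ± 0.06 in siLoxL1, -1.42 ± 0.11 in siLoxL2 and -0.39 ± 0.21 in scr, and siLox and scr overlapped.

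Of 53 further genes of the Notch pathway, grouped by role, 52 had a probe and 48 were tested. In siLox against scr 4 were higher and 4 lower, against 22.4% of all genes called, with a median difference of -0.05 (-0.04 with genes below background in 1 group set to their bound). Among genes of receptor and ligand modification and proteolysis, Adam10, the protease that makes the first cut after ligand binding, read 2.49 to 2.75 in siLox and 3.17 to 3.69 in scr, a difference of -0.81 ± 0.12 (adjusted p = 0.00851, limma). Lfng, a glycosyltransferase that modifies the receptors, differed by -0.62 ± 0.15 (adjusted p = 0.0318, limma), with 3 of 4 siLox samples above background. Aph1b, a subunit of gamma-secretase, was higher by 0.50 ± 0.08, and its other probe above background gave 0.33 without passing (adjusted p = 0.0609, limma). These were the 1 higher and 2 lower of 17 tested.

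In the nuclear group of 13 genes, 1 was lower and 1 higher in siLox. Kat2b, an acetyltransferase that acts as a co-activator, differed by -1.14 ± 0.19 (adjusted p = 0.0116, limma), with -0.94 to -0.67 in siLox and -0.14 to 0.79 in scr. Snw1, a nuclear protein that binds the complex, was higher by 0.36 ± 0.10 (adjusted p = 0.0393, limma). Of 9 inhibitors and turnover genes, Numbl was higher by 0.55 ± 0.10 and Egfl7 by 0.25 ± 0.05. This Egfl7 value is the same measurement as the endothelial call above, since the gene is in both lists. Dtx1, a Deltex protein, was above background in 0 of 4 siLox and 4 of 4 scr samples and was at least 1.43-fold lower in siLox, a bound taken from the dimmest signals above background (adjusted p = 0.0389, limma). Of the 5 other ligands tested, 0 were called by limma (2 at an unadjusted p under 0.05), with Dlk1 at -0.21 and Dlk2 at -0.17 log2 units. Of the 4 other Hes and Hey genes tested 0 were called by limma (2 at an unadjusted p under 0.05), with Hes6 at -0.32 and Hes7 at 0.11. Outside the naming rule, and picked after the values were seen, Rbpj differed by 0.02 ± 0.06 (adjusted p = 0.856, limma) and the ligand Dll1 by 0.85 ± 0.27 (adjusted p = 0.0594, limma). The other Rbpj probe gave 0.32 ± 0.11, which did not pass either (adjusted p = 0.0763, limma). The count of called pathway genes was 4 without scr 3, siLox 1, siLox 2 or siLox 3, 12 without scr 4 and 15 without replicate 4 of both groups.

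In siLoxL1 against siLoxL2, 4 of the 48 were higher and 1 lower, against 7.11% of all genes called. Fbxw7, which marks the intracellular domain of Notch for destruction, was higher by 0.29 ± 0.04 (adjusted p = 0.00795, limma), and its other probe gave 0.32. Itch, another ubiquitin ligase, was higher by 0.32 ± 0.05. The gamma-secretase subunit Aph1a was higher by 0.21 ± 0.04 and the co-repressor Tle1 by 0.22 ± 0.05. The other Aph1a probe gave 0.22 ± 0.23 without passing (adjusted p = 0.585, limma). The other Tle1 probes gave 0.31, 0.09 and 0.08 (adjusted p = 0.0190, 0.380 and 0.401, limma). Maml2, a Mastermind co-activator, differed by -0.29 ± 0.05 (adjusted p = 0.0206, limma), and its other probe gave -0.26 without passing (adjusted p = 0.223, limma). The other ligands Dlk1 (0.18) and Dlk2 (-0.07) and the repressors Hes6 (0.08) and Hes7 (-0.06) did not pass. The count was 0 without replicate 4 of both groups and at most 4 over the arrays left out. Across slides, 25 of the 48 were higher and 11 lower in siLoxL1, and 23 higher and 13 lower in siLoxL2, against 64.6% (43% higher, 21.6% lower) and 64.3% (41.1% higher, 23.2% lower) of all genes. Hey2, named after its values were seen, read -7.22 to -6.34 in siLoxL1, above background in 0 of 4 samples. Its scr levels were -3.27 to -2.67, so its scaled level was at least 8.72-fold lower in siLoxL1. This bound holds for scaled levels only, since the percentile subtracted was higher on slide 2 than on slide 1. Slide and siRNA cannot be told apart in it, and the unscaled difference was not tested. In siLoxL2 Hey2 read -6.83 to -5.76, above background in 1 of 4 samples. The Hey2 difference between siLoxL1 and siLoxL2 did not pass (adjusted p = 0.501, limma).

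**Figure D4:**
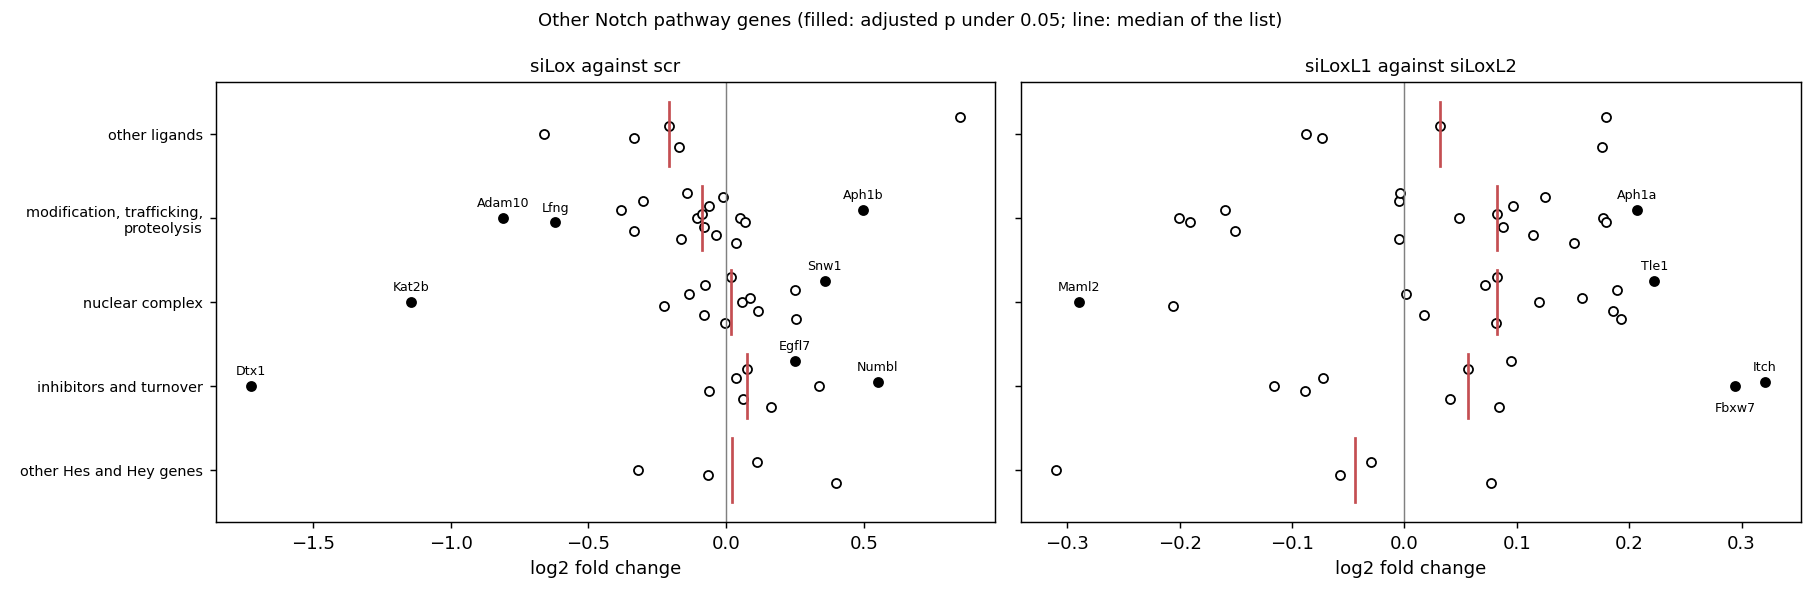
Log2 fold change (horizontal axis) of 48 further Notch pathway genes in 5 role groups, for siLox against scr (left) and siLoxL1 against siLoxL2 (right), on different scales. Filled points have an adjusted p under 0.05 and are named, and red lines are group medians. Dtx1 is drawn at its fitted value, although its siLox signal was below background.

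Genes whose levels followed those of a Notch gene most closely are given as a description over the 16 arrays after the mean of each slide was subtracted, among 14691 named genes. These points share slide, row and group, and such a ranking picks the highest of many values. Notch3 was followed by Slc25a45, Rab4b and Cdc42ep2 (Pearson r 0.97, 0.97 and 0.96). Notch4 was followed by Rnf157, Ly6g and Hid1 (0.94, 0.92 and 0.91). Hes1 was followed by Dhodh, Zfp595 and Rufy4 (0.92 each), and Hey1 by Kif22, Thoc2 and Dync1i2 (0.82, 0.82 and 0.81). Jag1 was followed by F3, Samd5 and Srp9 (0.89, 0.88 and 0.88). Notch2 was followed by Pebp1, Ndufa6 and Slc38a10 (0.90, 0.87 and 0.85), and Notch1 by Mgea5, Rab3c and Cd244a (0.86, 0.86 and 0.84). None of these genes belonged to the Notch lists.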

How the data were processed

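RNA was labelled with Cy3 and hybridised to Agilent arrays, and spots were read with Agilent Feature Extraction 10.7.3.1, per the file headers and the submitters' processing notes. The deposited scanner tables hold intensity values per spot, of which the processed signal is already background-corrected per the file headers, with flags for background, saturation and outliers; 0 spots were saturated. The authors' deposited value table holds log2 values that were quantile normalized between arrays (sorted columns differ by at most 0.000965; column medians 4.84; r 0.997 to 0.999 with the scanner values), so it is neither centred per gene nor a ratio, and it served as an alternative. Positions are in mm9, per the file headers.

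Log2 processed signals were scaled by subtracting each array's 75th percentile over non-control probes. Outlier-flagged spots were left out and spots of a probe averaged. A probe was tested where 1 group or more had it well above background throughout its 4 arrays (32430 of 55681) with limma 3.58.1 in R 4.3.3 (lmFit, eBayes), adjusted by Benjamini-Hochberg over all 32430, threshold 0.05. siLox against scr and siLoxL1 against siLoxL2 were each fitted on the 8 arrays of their slide, since the spread differed between slides; comparisons across slides used all 16 arrays. Exact permutation p-values are for single probes and are not adjusted. The brightest tested probe stood for a gene. The fits were tested on simulated data. Current symbols came from the RefSeq table (GRCm38.p6), in which 28026 of the probes (50.3%) had their accession; other probes kept the name in the file. The number of arrays limits the precision.

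All 9 genes were named. Of the further pathway lists, up to 3 called genes of largest difference per list and within-slide comparison were named, or the 2 of highest level where none was called, and up to 2 genes per marker list; departures are stated. The genes and lists were chosen with earlier results of these data known. Alternatives were normexp background correction (offset 50), quantile normalization, other filters on dim probes, 1 probe per gene, array weights, other arrays in the fit, the value table, a replicate block and leaving out arrays.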

Additional observations from a re-analysis of the deposited data

Results flagged for a closer look

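Within groups of 4 samples, 2 of 76 sample sets held a value far from the others by Dixon's test, and chance alone flags about 1 in 20. Notch2 probe 2 read -2.83 in siLoxL1 replicate 3, while the other siLoxL1 samples read -3.37 to -3.30. The mean level of the leukocyte and macrophage markers was -0.10 in siLoxL2 replicate 1, while the other siLoxL2 samples lay between -0.20 and -0.19.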

How the results depend on the processing

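The number of probes called by limma moved with the arrays and the filter more than the differences themselves did. In siLox against scr it was 6851, with 2623 without a filter on dim probes, 12844 with all 16 arrays in the fit and 11824 with array weights, and it ranged from 1745 to 9937 as arrays were left out, with 0 to 4 of the 7 Notch genes called. In siLoxL1 against siLoxL2 it was 2182, with 412 without a filter, 1033 with all 16 arrays, and 162 to 1320 as arrays were left out, with 0 to 1 Notch gene called. Without a filter, siLoxL1 against scr gave 34690 calls (20253 with it) and siLoxL2 against scr 34254 (20204 with it). Leaving out arrays gave 18525 to 20702 and 5 Notch genes in siLoxL1 against scr, and 18284 to 20550 and 4 to 6 in siLoxL2 against scr. Replicate numbers recur in every group but were not taken as pairs, since the labels tie them to nothing and not every same-numbered correlation of deviations was over 0.1: they were -0.15 to -0.004 in siLox and scr and 0.04 to 0.20 in siLoxL1 and siLoxL2, where 3 of 4 samples correlated best with their own number, a hint from the data and not from the design. With the replicate block, siLox against scr gave 0 calls among all probes (9671 at an unadjusted p under 0.05, limma) and 0 Notch genes (3 at an unadjusted p under 0.05), and siLoxL1 against siLoxL2 gave 515 calls with Notch4 kept. Among differences that passed under either setting 1 reversed: Notch2 probe 2 in siLoxL1 against scr was 0.13, and -0.39 with normexp background correction (adjusted p = 0.000487, limma). That correction also called Notch1 in siLoxL1 (-0.48) and siLoxL2 (-0.50) against scr and Notch2 probe 2 in siLoxL2 (-0.56); the cause was not tested. Differences near 0 that passed under neither setting also changed sign: Notch1 in siLox against scr (-0.15, and 0.03 without siLox replicate 4), Notch1 in siLoxL1 against siLoxL2 (0.01, lowest -0.09) and Notch3 in siLoxL1 against scr (0.13, and -0.000361 without scr replicate 4). Hey1 in siLox missed the threshold without a filter (adjusted p = 0.0536, limma). Notch3 in siLoxL2 against scr was called with normexp (0.25), with array weights (0.32) and without scr replicate 1 (0.40). Dim probes (Notch1, Notch2 probe 2) and genes below background (Heyl, Jag2) are limited by signal over background. Counts of further pathway genes without single arrays were added after the data were seen.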
